A study of Mus musculus with 10 samples.

Results

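Globins carry oxygen in red cells, and a small set of transmembrane and skeletal proteins gives the red cell its shape and strength. Levels of 8 such genes were followed in bone marrow hematopoietic progenitor cells. The genes were the adult alpha globins Hba-a1 and Hba-a2, the adult beta globins Hbb-bs and Hbb-bt, and the membrane genes Slc4a1, Epb42, Sptb and Ank1. They were picked by symbol from a table of 38887 Ensembl gene identifiers, and all 8 were found and passed the filter on low counts, which left 14346 genes.

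The CK2i group was 5 libraries of progenitors from mice bearing Lewis lung carcinoma, a transplantable mouse tumour, that were given 60 mg/kg of the CK2 inhibitor BMS-595 for 2 weeks. The vehicle group was 5 libraries from mice with the same tumour given vehicle, which the sample titles call untreated. CK2 is a protein kinase that is active without a stimulus. The labels give neither age, sex and background strain of the mice nor the markers used for isolation, and all libraries of both groups come from tumour-bearing animals. Replicates are numbered in the labels, which do not tie each to its own animal. The p-values therefore describe library-to-library spread, part of which may be technical.

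In an adult red cell a hemoglobin tetramer is made of paired alpha and beta chains. Slc4a1 encodes band 3, the chloride and bicarbonate exchanger that is the main membrane protein of the red cell. Ank1 encodes ankyrin, which ties band 3 to the spectrin network, Sptb encodes the beta chain of that spectrin, and Epb42 encodes protein 4.2, a transglutaminase relative without enzyme activity that binds band 3 and ankyrin. In erythroid maturation the spectrin and ankyrin genes are active early, while globin and band 3 transcripts build up later, under factors that include GATA1 and KLF1.

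The alpha globin genes lie on chromosome 11 of GRCm38, the assembly also named mm10. Hba-a1 (ENSMUSG00000069919) is at 32283511 to 32284465 and Hba-a2 (ENSMUSG00000069917) at 32296489 to 32297298, both on the plus strand. The beta globin genes lie on chromosome 7, on the minus strand, with Hbb-bs (ENSMUSG00000052305) at 103826534 to 103828096 and Hbb-bt (ENSMUSG00000073940) at 103812524 to 103813996. Slc4a1 (ENSMUSG00000006574) is on chromosome 11, 102348824 to 102366203, and Epb42 (ENSMUSG00000023216) on chromosome 2, 121017891 to 121037072. Sptb (ENSMUSG00000021061) is on chromosome 12, 76580488 to 76710547, and Ank1 (ENSMUSG00000031543) on chromosome 8, 22974844 to 23150497. Each value below is for the whole gene, summed by the authors over its annotated transcripts.

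The copies of each globin are nearly the same. In the GENCODE M21 transcripts the coding sequences of Hba-a1 and Hba-a2 are 426 bases long and differ at 1 base, and those of Hbb-bs and Hbb-bt are 441 bases long and also differ at 1 base. Of the 75-base windows of the main Hba-a2 transcript, 81.0% occur unchanged in that of Hba-a1, and for Hbb-bs 64.3% occur in that of Hbb-bt. Reads of those stretches were divided between the copies by the authors' quantification, so the copies were also summed as alpha globin and as beta globin.

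Promoter windows are shown as a description of the members, and a link of their motifs to the changes in level was not tested. They are credited to RefSeq, whose table matched 6 of the 8 members, without Slc4a1 and Ank1. The windows are the 120 bases before the RefSeq start of each gene on GRCm38.p6, 5′ to 3′ on the gene's own strand. They are chr11:32283552-32283671 on the plus strand for Hba-a1 and, on the minus strand, chr7:103827929-103828048 for Hbb-bs, chr7:103813924-103814043 for Hbb-bt, chr2:121036878-121036997 for Epb42 and chr12:76710548-76710667 for Sptb. Capitals mark every match, on either strand, to CACCC or CCAAT and to TATAA or GATAA, with overlapping matches shown as one stretch.
Hba-a1: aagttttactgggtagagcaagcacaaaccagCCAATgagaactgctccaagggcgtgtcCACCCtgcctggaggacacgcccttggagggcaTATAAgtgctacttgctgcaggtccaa
Hbb-bs: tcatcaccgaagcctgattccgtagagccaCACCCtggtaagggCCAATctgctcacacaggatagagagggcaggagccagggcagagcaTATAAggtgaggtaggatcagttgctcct
Hbb-bt: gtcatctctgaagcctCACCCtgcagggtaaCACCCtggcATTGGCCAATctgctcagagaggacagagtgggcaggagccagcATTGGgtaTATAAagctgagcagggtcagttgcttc
Epb42: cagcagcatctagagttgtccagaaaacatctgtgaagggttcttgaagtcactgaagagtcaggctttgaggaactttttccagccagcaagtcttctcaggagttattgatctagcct
Sptb: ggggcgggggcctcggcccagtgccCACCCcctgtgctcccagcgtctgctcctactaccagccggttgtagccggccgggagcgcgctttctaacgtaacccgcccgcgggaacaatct

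Hba-a2 is not printed because its window in the RefSeq promoter table, which is longer than the stretch printed, shares an unbroken run of 297 bases with that of Hba-a1. The longest run shared by the table's windows for Hbb-bs and Hbb-bt is 14 bases. Each of the 4 globin windows held CACCC together with CCAAT and with TATAA, a combination found in 0.688% of 32851 windows of that length in the RefSeq table. The Sptb window held CACCC alone of the 4 motifs and the Epb42 window held none of them. Taken singly, CACCC was in 31.7%, CCAAT in 21.3%, TATAA in 11.8% and GATAA in 10.5% of all windows. A match is a run of letters and was not tested as a binding site. The windows of Hba-a1 and Hba-a2 are near-identical and are not separate observations. The starts in RefSeq differ from those of GENCODE M21 used for the gene coordinates: the Hba-a1, Hbb-bs and Epb42 windows lie inside the genes as GENCODE gives them, the Hbb-bt window in part, and the Sptb window just before its gene.

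In CK2i libraries the 4 adult globin transcripts and Slc4a1 were higher than in vehicle libraries, by 2.05-fold for Hba-a1 to 3.21-fold for Slc4a1, while Sptb and Ank1 differed by 1.08-fold and 1.07-fold and did not pass the test. Of the 8 genes, 5 passed upward and none downward in edgeR's quasi-likelihood test at an adjusted p under 0.05. Over all 14346 tested genes, 6.43% passed upward. The median log2 fold change of the 8 was 1.07, against -0.001 over all tested genes. The near-identical globin copies count separately in this count and median, though they share reads. The members were chosen with earlier results of these data known, so the count and median are not independent of these data. In these bulk libraries a larger share of red cell precursors and more of a transcript per cell cannot be told apart.

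**Figure D1:**
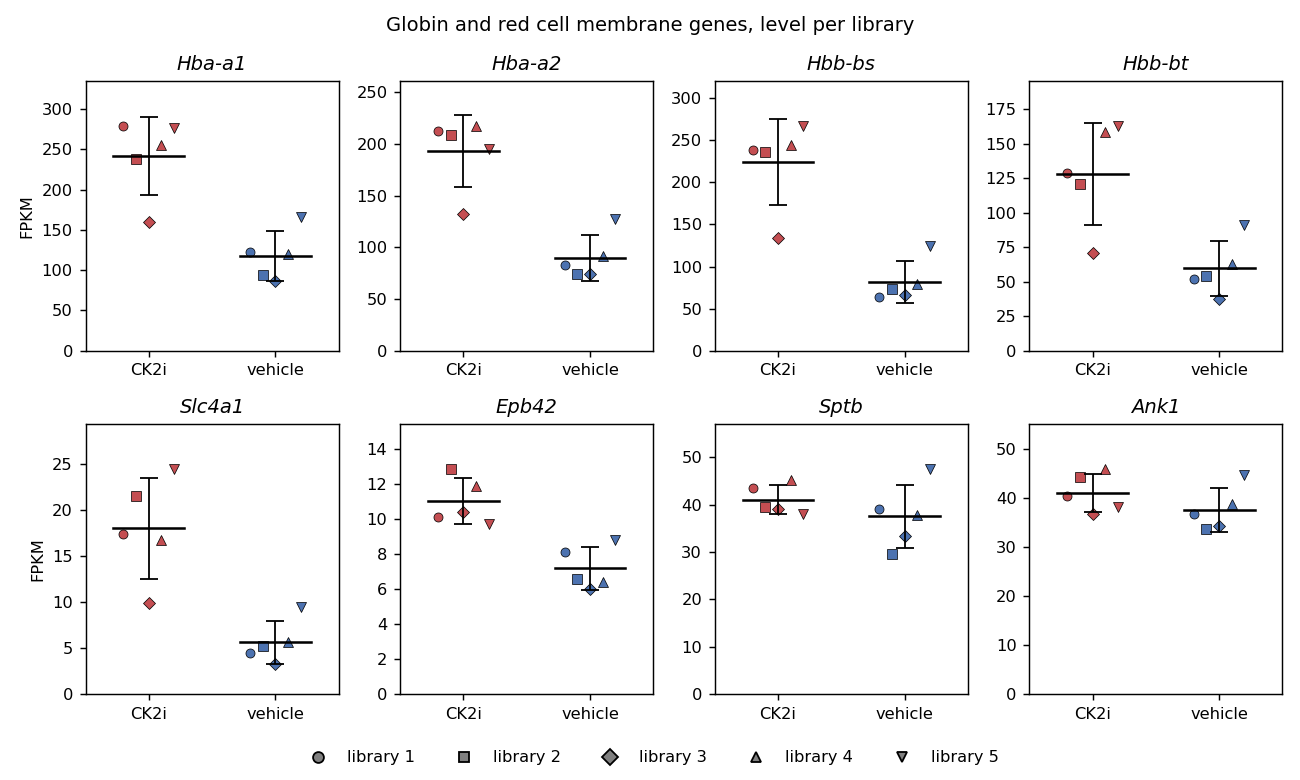
FPKM of each of the 8 genes (vertical axis, linear from 0, own scale per panel) in the 5 CK2i and 5 vehicle libraries; symbols mark library numbers, and bars give mean ± SD. CK2i 3 is the lowest treated library and vehicle 5 the highest vehicle library for all 4 globins and Slc4a1. The groups overlap for Hba-a1, Hbb-bt, Sptb and Ank1.

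Levels are given as FPKM, fragments scaled to transcript length and to library depth, which allows genes of different length to be compared. Tests and fold changes rest on the estimated counts, expressed per library as CPM, counts scaled to library size, with TMM scaling for composition. Total counts were 34127674 to 40811539 in CK2i libraries and 37569160 to 43636152 in vehicle libraries. On the first principal component of all tested genes CK2i 2 and CK2i 5 lay at 43.26 and 43.68, apart from -4.10 to 12.48 for the other CK2i libraries and -29.62 to -9.37 for vehicle libraries, so results are also given without that pair. Kit and Cd34, markers of progenitors, averaged 48.3 ± 5.47 and 84.2 ± 6.30 FPKM in CK2i libraries and 56.9 ± 2.98 and 76.5 ± 12.6 FPKM in vehicle libraries (SD, n = 5 each).

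Alpha globin was the most abundant of the members. Hba-a1 was at 279, 238, 160.1, 255 and 276 FPKM in CK2i libraries 1 to 5, against 123, 94.6, 86.2, 119.9 and 166 FPKM in vehicle libraries 1 to 5. The groups overlapped, since CK2i 3 lay below vehicle 5. The rise was 1.04 ± 0.19 log2 (SE, edgeR adjusted p = 0.0148). Hba-a2 was at 212, 209, 132, 217 and 195 FPKM in CK2i libraries, against 83.0, 73.8, 73.9, 91.55 and 127 FPKM in vehicle libraries. Every CK2i library was above every vehicle library, though CK2i 3 and vehicle 5 were close. It rose by 1.10 ± 0.17 log2 (adjusted p = 0.00863). The sum of both copies averaged 435 ± 81.1 FPKM in CK2i libraries and 208 ± 52.6 FPKM in vehicle libraries, a rise of 1.06 ± 0.18 log2 (adjusted p = 0.0119). For this sum the groups overlapped, with CK2i 3 at 292.5 FPKM and vehicle 5 at 292.8 FPKM.

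Beta globin followed the same libraries. Hbb-bs, the more abundant beta copy, was at 238, 236, 134, 245 and 267 FPKM in CK2i libraries, against 64.0, 72.8, 65.8, 79.8 and 124 FPKM in vehicle libraries. No CK2i library was below a vehicle library, and the rise of 1.45 ± 0.22 log2 (adjusted p = 0.00765) was exceeded by 0.404% of tested genes. Hbb-bt was at 129, 121, 70.6, 158 and 163 FPKM in CK2i libraries, against 52.0, 54.2, 37.75, 63.15 and 91.1 FPKM in vehicle libraries. CK2i 3 lay below vehicle 5 for this copy. Hbb-bt rose by 1.10 ± 0.25 log2 (adjusted p = 0.0256). The adjusted p missed the threshold when CK2i 2 (0.0519), CK2i 5 (0.0621), vehicle 1 (0.0657), vehicle 3 (0.0507) or vehicle 4 (0.055) was left out. The summed beta copies averaged 352 ± 87.3 FPKM in CK2i libraries and 141 ± 44.1 FPKM in vehicle libraries, a rise of 1.32 ± 0.23 log2 (adjusted p = 0.0123). For this sum too the groups overlapped, with CK2i 3 at 205 FPKM and vehicle 5 at 215.4 FPKM.

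The globins were a small part of these libraries. Together the 4 genes took 0.0246% to 0.0457% of the counts in CK2i libraries and 0.0131% to 0.0254% in vehicle libraries. By mean FPKM, Hba-a1 ranked 422nd of all listed genes in CK2i libraries and 868th in vehicle libraries. The embryonic globin genes gave almost no reads: Hbb-bh1 and Hbb-bh2 had a count of 0 in all 10 libraries, which allows at most 0.0688 to 0.0879 CPM per library by a floor of 3 counts, for counting error alone. Hba-x totalled 20 counts and Hbb-y 11 counts over all 10 libraries. Hbq1b, a theta globin gene in the alpha cluster, had 9 to 21 counts in CK2i libraries and 13 to 36 in vehicle libraries, and it did not pass (log2 -0.51 ± 0.31, adjusted p = 0.257). Its neighbour Hbq1a had 0 counts in every CK2i library and at most 1 in a vehicle library.

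**Figure D2:**
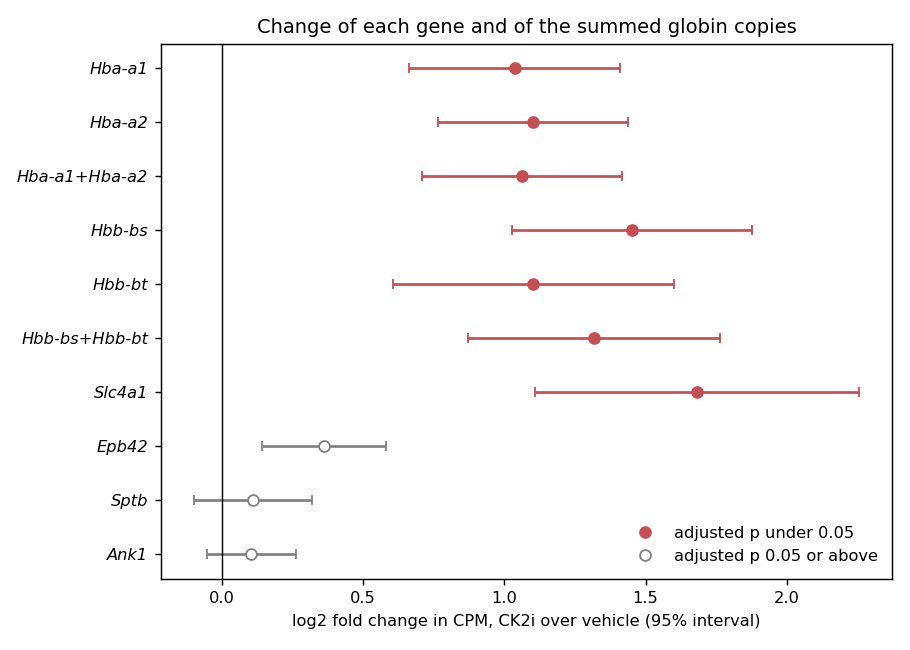
Log2 fold change in CPM, CK2i over vehicle, of each gene and of the summed globin copies, with normal 95% intervals from edgeR's SE; filled points passed an adjusted p of 0.05. The globins and Slc4a1 lie between 1.04 and 1.68, and Epb42, Sptb and Ank1 between 0.10 and 0.36.

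Slc4a1, the gene of band 3, had the largest rise of the 8. It was at 17.3, 21.5, 9.85, 16.75 and 24.4 FPKM in CK2i libraries, against 4.39, 5.25, 3.24, 5.62 and 9.45 FPKM in vehicle libraries. The groups did not overlap, but CK2i 3 exceeded vehicle 5 by little. The rise was 1.68 ± 0.29 log2 (adjusted p = 0.0127). By CPM, which the test uses, 3 of the 8 genes had groups that did not overlap (Hba-a2, Hbb-bs and Slc4a1), against 5.18% of all tested genes with CK2i higher and 5.76% with CK2i lower. For the alpha globin sum and the beta globin sum the CPM groups overlapped. With CK2i 2 and CK2i 5 left out the adjusted p was 0.062 for Slc4a1, 0.0695 for Hba-a1 and 0.12 for Hbb-bt, while Hba-a2 and Hbb-bs still passed.

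Sptb, beta spectrin, was at 43.4, 39.4, 39.1, 45.1 and 38.0 FPKM in CK2i libraries, against 39.0, 29.65, 33.4, 37.9 and 47.5 FPKM in vehicle libraries. The highest library of all was vehicle 5. The difference of 0.11 ± 0.11 log2 did not pass (adjusted p = 0.481), with a 95% interval of -0.10 to 0.32. Ank1, ankyrin, was at 40.5, 44.2, 36.7, 45.9 and 38.1 FPKM in CK2i libraries, against 36.6, 33.7, 34.2, 38.7 and 44.7 FPKM in vehicle libraries. It differed by 0.10 ± 0.08 log2 (adjusted p = 0.38), with an interval of -0.05 to 0.26. A 2-fold rise such as that of the globins lies outside both intervals. In vehicle libraries Sptb and Ank1, at 37.5 ± 6.71 and 37.6 ± 4.44 FPKM, were well above Slc4a1 at 5.59 ± 2.34 FPKM.

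Epb42, protein 4.2, gave different answers by count and by FPKM. Its counts scaled to CPM were 21.2 to 25.9 in CK2i libraries and 15.2 to 23.7 in vehicle libraries, and the groups overlapped. The difference of 0.36 ± 0.11 log2 missed the threshold (adjusted p = 0.0542). Its FPKM values were 10.1, 12.85, 10.4, 11.9 and 9.73 in CK2i libraries, against 8.12, 6.58, 5.98, 6.42 and 8.81 in vehicle libraries. Here the groups did not overlap, which held for 5.58% of all tested genes with CK2i higher. By limma on log2(FPKM + 1) the difference was 0.56 log2 and passed (adjusted p = 0.0237), where 4.27% of tested genes passed upward. In counts it also passed without vehicle 5 (edgeR adjusted p = 0.0292), without CK2i 3 (0.0465) and by DESeq2 (0.0172). By DESeq2 1689 genes passed upward over the table, against 922 by edgeR. Those omissions were the only 2 of 10 in which it passed, and the edgeR adjusted p reached 0.122 in the others. Without both CK2i 2 and CK2i 5 it was 0.279.

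The count and the FPKM of a gene are linked by the effective transcript length that the quantification assigned, which follows the mix of isoforms. For Epb42 this implied length was 2105, 1966, 2145, 2037 and 2650 bases in CK2i libraries, against 2362, 2520, 2547, 2726 and 2691 bases in vehicle libraries. CK2i 5 lay within the vehicle range and the other CK2i libraries below it. The mean log2 difference was -0.24 (exact permutation test over all splits, two-sided p = 0.0317), which did not pass after adjustment over the 8 members (0.127). The fall was also ranked by another measure, the log2 ratio of the group mean lengths. On that measure, among 11187 genes with at least 1 FPKM in every library, 0.197% had a fall at least as large. The annotation lists coding transcripts of 2695 and 4115 bases for Epb42 beside shorter noncoding ones, and the deposited table does not give them one by one. For the other 7 members the implied length differed by at most 0.018 log2.

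**Figure D3:**
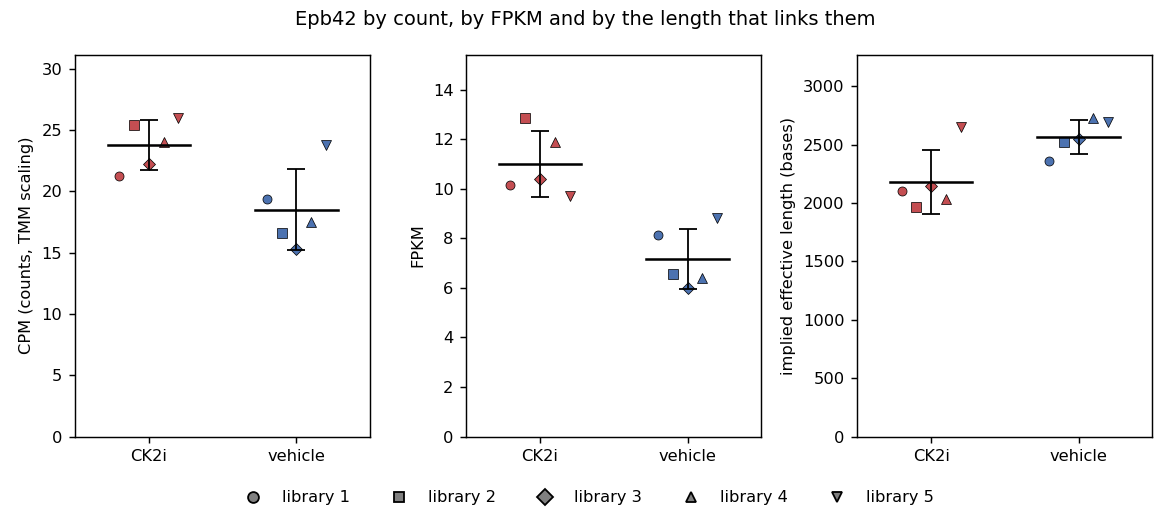
Epb42 in each library as CPM, as FPKM and as the implied effective length in bases (3 panels, axes from 0); bars give mean ± SD of 5 libraries. The CPM groups overlap, the FPKM groups do not, and 4 CK2i libraries lie below all vehicle libraries in implied length.

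Ratios within a library do not depend on scaling. The 4 globins summed over the 4 membrane genes stood at 7.04 ± 1.15 in CK2i libraries and 3.92 ± 0.442 in vehicle libraries (SD, n = 5 each, ratio of FPKM). The lowest CK2i library, at 5.18, was above the highest vehicle library, at 4.60. This gave p = 0.00794 by exact permutation, the smallest that 5 libraries against 5 allow, and 0.0317 adjusted over 4 planned ratios. The ratio reuses the values of the single-gene tests, and the members were chosen with earlier results of these data known. It is therefore not separate evidence. The denominator is mostly Sptb and Ank1, at 37.5 and 37.6 FPKM in vehicle libraries, against 5.59 for Slc4a1 and 7.18 for Epb42. Omitting vehicle 1 or 4 moved the adjusted p to 0.0635, and omitting vehicle 2 or 5 moved it to 0.0529.

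The balance between the globins was less clear. Alpha over beta globin was 1.34, 1.25, 1.43, 1.17 and 1.10 in CK2i libraries, against 1.78, 1.33, 1.55, 1.48 and 1.36 in vehicle libraries. The groups overlapped, and the log2 difference of -0.25 did not pass (exact permutation p = 0.0397, adjusted 0.0529). The share of Hbb-bt in beta globin was 0.361 ± 0.0235 in CK2i libraries and 0.421 ± 0.0332 in vehicle libraries, lower in CK2i (exact permutation p = 0.0238, adjusted 0.0476). The call was lost on omitting CK2i 1 (adjusted p = 0.0635 by the same exact test), CK2i 2, vehicle 1 or vehicle 4 (0.0794 each), or CK2i 3, vehicle 2 or vehicle 5 (0.0529 each). The share of Hba-a1 in alpha globin was 0.555 ± 0.0217 and 0.566 ± 0.0209 in CK2i and vehicle libraries (exact permutation p = 0.405). Both shares depend on how reads were divided between near-identical copies.

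Ratios among the membrane genes were picked after the values were seen, so they are given as descriptions, without test results. Slc4a1 over Ank1 was 0.438 ± 0.139 in CK2i libraries and 0.145 ± 0.0439 in vehicle libraries, and Slc4a1 over Sptb was 0.442 ± 0.153 and 0.147 ± 0.0427. Neither ratio overlapped between the groups. Slc4a1 over Epb42 was 1.65 ± 0.569 in CK2i libraries and 0.766 ± 0.228 in vehicle libraries, with CK2i 3 below vehicle 5. This ratio is of FPKM values, which carry the implied length of Epb42. With counts in place of FPKM its log2 difference was 1.33, where FPKM gave 1.09. Globins over Slc4a1 was 45.3 ± 7.50 in CK2i libraries and 65.6 ± 11.65 in vehicle libraries. CK2i 2 and CK2i 5 had the lowest values of this ratio, at 37.4 and 36.95, while the other CK2i libraries were at 49.5 to 52.3 and the lowest vehicle library at 53.8. The log2 difference was -0.53, and -0.35 without CK2i 2 and CK2i 5.

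**Figure D4:**
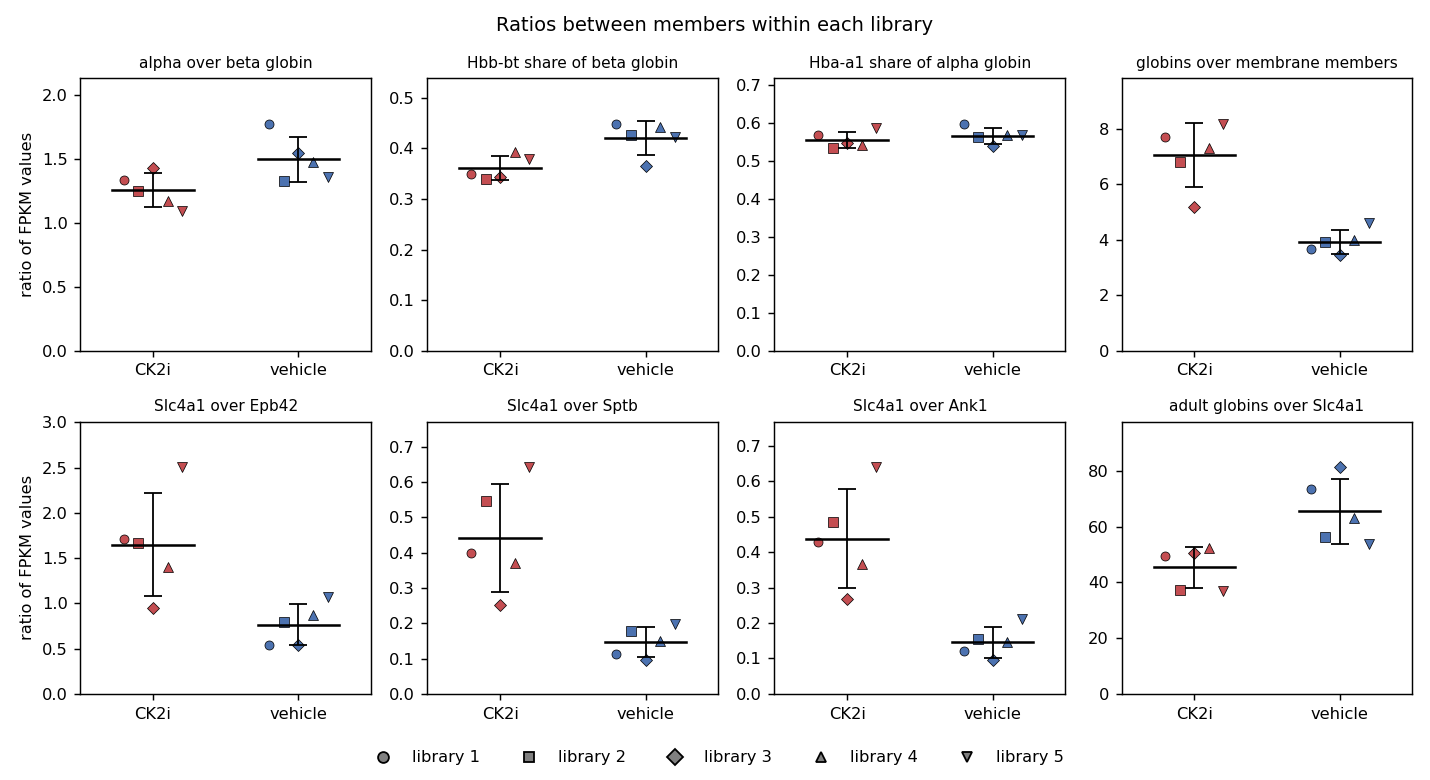
Ratios of FPKM values within each library (axes from 0) in 5 CK2i and 5 vehicle libraries, with symbols for library numbers and bars for mean ± SD. Globins over membrane genes, Slc4a1 over Sptb and Slc4a1 over Ank1 are higher in every CK2i library than in any vehicle library, and adult globins over Slc4a1 is lower in every CK2i library.

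Of 19 other genes of the red cell membrane, all tested, none passed upward and 3 passed downward, where 6.76% of all tested genes passed downward, and the median was -0.08 log2. The downward count was 0 by limma on log2(FPKM + 1), and 1 with total counts alone as scaling, with no filter or with the replicate block. Add1, an adducin that caps actin filaments and helps spectrin bind them, was at 73.5 ± 5.34 FPKM in CK2i libraries and 84.4 ± 4.25 FPKM in vehicle libraries (adjusted p = 0.018). Icam4 and Ermap, surface proteins that carry blood group antigens in humans, fell by 0.33 ± 0.10 and 0.30 ± 0.09 log2 (adjusted p = 0.0454 and 0.0498). The number passing downward was 1 without CK2i 1, CK2i 2, CK2i 5 or any of vehicle 1, 3, 4 and 5, and 2 without CK2i 3, and upward it was 2 without CK2i 3 and 1 without vehicle 5.

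Of 11 paralogs of the membrane genes that serve other cells, all tested, 3 passed upward and 1 downward, against 6.43% and 6.76% of all tested genes, with a median of 0.235 log2. Sptbn1, a beta spectrin of most cells, rose to 52.6 ± 4.50 FPKM in CK2i libraries, against 42.2 ± 3.31 FPKM in vehicle libraries (adjusted p = 0.0258). Epb41l2, a relative of protein 4.1, rose by 0.24 ± 0.06 log2 (adjusted p = 0.0296). Ank2 was at 0.860 ± 0.359 FPKM in CK2i libraries and 0.422 ± 0.0893 FPKM in vehicle libraries (adjusted p = 0.0369), and Ank3 at 3.78 ± 0.722 FPKM and 6.30 ± 1.51 FPKM (adjusted p = 0.0342). The other anion exchanger listed, Slc4a2, differed by -0.05 ± 0.05 log2 (adjusted p = 0.506). None of the 11 passed upward without CK2i 2, CK2i 5, vehicle 1 or vehicle 5, 1 did without vehicle 4, and Ank3 was not called without CK2i 1, 2 or 5 or any of vehicle 1, 3, 4 and 5.

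Of 16 transcription regulators of globin genes, all tested, 6 passed downward and 1 upward, against 6.76% and 6.43% of all tested genes, with a median of -0.23 log2. Gata1, the erythroid and megakaryocytic zinc finger factor, fell to 65.1 ± 8.70 FPKM in CK2i libraries, against 90.05 ± 8.99 FPKM in vehicle libraries (adjusted p = 0.0178). Nfe2 fell to 81.05 ± 8.32 FPKM in CK2i libraries, against 105 ± 5.89 FPKM in vehicle libraries (adjusted p = 0.018). Ldb1, which bridges the locus control region and the globin promoters, fell by 0.32 ± 0.06 log2 (adjusted p = 0.0184), and its partner Lmo2 by 0.15 ± 0.03 (0.0216). Foxo3 and Gfi1b fell by 0.20 ± 0.04 and 0.55 ± 0.12 log2 (adjusted p = 0.0185 and 0.0248). Klf1, the factor of the CACCC element, was at 99.8 ± 12.4 FPKM in CK2i libraries and 116 ± 11.55 FPKM in vehicle libraries and did not pass (log2 -0.23 ± 0.09, adjusted p = 0.0993). Sox6 was the gene that rose, to 3.52 ± 0.831 FPKM in CK2i libraries, against 1.98 ± 0.430 FPKM in vehicle libraries (adjusted p = 0.0197). The downward count was 4 without CK2i 5 or vehicle 4 and 9 without CK2i 3, and Sox6 was not called without vehicle 1.

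Of 14 genes of late erythroid maturation, all tested, 4 passed upward and 4 downward, against 6.43% and 6.76% of all tested genes, and the median was -0.02 log2. Alas2, the first enzyme of heme synthesis in red cells, was at 5.47 ± 1.13 FPKM in CK2i libraries and 2.57 ± 0.910 FPKM in vehicle libraries (log2 1.02 ± 0.24, adjusted p = 0.0257). Slc25a37, which brings iron into mitochondria, rose by 0.52 ± 0.07 log2 (adjusted p = 0.00537), the ubiquitin ligase gene Trim10 by 0.56 ± 0.12 (0.0209) and the nuclear export receptor gene Xpo7 by 0.35 ± 0.09 (0.0335). Among the 4 that fell were Bnip3l, needed for the loss of mitochondria from reticulocytes, by 0.27 ± 0.05 (adjusted p = 0.0127), Tspo2 by 0.30 ± 0.09 (0.0431) and Ube2o by 0.525 ± 0.145 (0.0413). The upward count was 1 without CK2i 5 or vehicle 1, and 2 without vehicle 3 or vehicle 4. The downward count was 2 without CK2i 4 and 1 without CK2i 2, CK2i 5 or any of vehicle 1, 3, 4 and 5.

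Genes of early erythroid progenitors passed downward in 4 of 13, against 6.76% of all tested genes, and none passed upward, with a median of -0.25 log2. The downward count was 1 by limma on log2(FPKM + 1) and 2 with the replicate block. Car1, a carbonic anhydrase, fell to 711 ± 182 FPKM in CK2i libraries, against 1197 ± 146 FPKM in vehicle libraries (adjusted p = 0.0205). Car2 fell to 550.3 ± 70.5 FPKM in CK2i libraries, against 707 ± 77.5 FPKM in vehicle libraries (adjusted p = 0.0331). Aqp1 and Blvrb fell by 0.38 ± 0.10 and 0.39 ± 0.10 log2 (adjusted p = 0.0357 and 0.0338). Epor, the erythropoietin receptor, was at 36.5 ± 5.59 FPKM in CK2i libraries and 44.2 ± 4.51 FPKM in vehicle libraries and did not pass (adjusted p = 0.0764). The downward count was 1 without CK2i 2, CK2i 5, vehicle 4 or vehicle 5, 0 without vehicle 1, and 6 without CK2i 4.

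**Figure D5:**
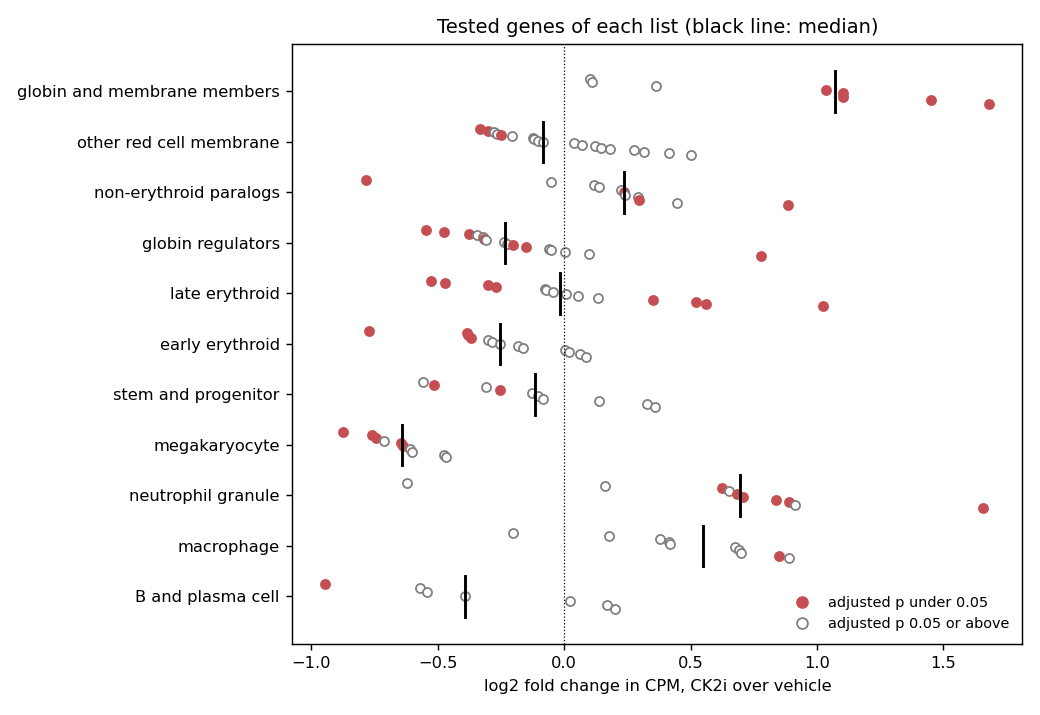
Log2 fold change in CPM, CK2i over vehicle (horizontal axis), of the tested genes of each list; filled points passed an adjusted p of 0.05 and black lines are medians. The globin and membrane members have the highest median, at 1.07, with the globin copies that share reads counted separately. Members and lists were chosen with earlier results of these data known. The neutrophil granule genes follow at 0.695, while the globin regulators and early erythroid genes have medians of -0.23 and -0.25.

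Marker lists of other cells were counted the same way, against 6.43% of all tested genes passing upward and 6.76% downward, and their part in the globin result was not tested. Of 10 neutrophil granule genes, 6 passed upward, and their summed level was 3654 to 6222 FPKM in CK2i libraries and 1944 to 3976 FPKM in vehicle libraries. Of 10 megakaryocyte genes, 5 passed downward, with sums of 1261 to 2828 FPKM in CK2i libraries and 2369 to 3878 FPKM in vehicle libraries. Of 10 macrophage genes, which take in those of the macrophages that nurse erythroblasts, Adgre1 passed upward, with sums of 48.65 to 89.2 FPKM in CK2i libraries and 42.3 to 70.5 FPKM in vehicle libraries. Of 10 listed B and plasma cell genes, 7 were tested and Jchain passed, downward. Of 10 progenitor genes, Kit and Mycn passed downward. No marker in these 5 lists was at 0 in all libraries, though the B cell genes Pax5 and Ms4a1 averaged at most 0.084 FPKM in CK2i libraries and 0.126 FPKM in vehicle libraries. The neutrophil count was 1 on omitting CK2i 2, CK2i 5, vehicle 1 or vehicle 4, 2 on omitting vehicle 5, and 3 on omitting CK2i 1 or vehicle 3. The megakaryocyte count was 10 on omitting CK2i 3, 2 on omitting CK2i 1, and 0 on omitting CK2i 2, 4 or 5 or vehicle 1, 3, 4 or 5. Adgre1 was not called on omitting any of those same 7 libraries, and 2 macrophage genes passed upward on omitting CK2i 3. The progenitor count ranged from 0 (CK2i 5, vehicle 1, 3 or 4 omitted) through 1 (CK2i 2, CK2i 4, vehicle 2 or vehicle 5 omitted) to 4 (CK2i 3 omitted), and the B and plasma cell count was 3 on omitting CK2i 3. With CK2i 2 and CK2i 5 both left out, 1 late erythroid gene passed upward, 1 early erythroid gene and 1 B and plasma cell gene passed downward, and no gene of the other lists passed.

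The genes most like the summed adult globins across the 10 libraries were sought by the root mean square difference in log2 CPM, each gene set to its vehicle mean, among 9858 named genes with a mean of at least 5 CPM. Alas2 was the closest, at 0.14 log2, followed by Oas1g (0.28), Apol8 (0.29), Ppm1e (0.31) and Sdc3 (0.35), where the median gene was at 0.91. Slc4a1 itself was at 0.43 and Epb42, Sptb and Ank1 at 0.62 to 0.80. To Slc4a1 the closest of these genes were Alas2 (0.53), Apol8 (0.55), Oas1g (0.55), Cybb (0.55) and Ifi204 (0.56), while Hbb-bs was closer, at 0.27, and the other globins were at 0.47 to 0.53. Ppm1e, a phosphatase gene, was at 2.42 ± 0.230 FPKM in CK2i libraries and 1.34 ± 0.0915 FPKM in vehicle libraries. Closeness to a profile that is higher in CK2i libraries selects genes that rise, so the rise of these genes is not separate evidence.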

How the data were processed

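RNA was sequenced from 5 CK2i and 5 vehicle libraries made with a stranded total RNA kit and read as 75-base pairs, per the labels' protocols. The submitters' processing notes name mm10, Bowtie2, RSEM 1.2.31 and DESeq2, with no roles. No source used here states the annotation or the strand setting. The estimated counts that the authors deposited hold whole numbers. The deposited FPKM values scale counts by effective length and depth, per the file headers and processing notes. The 2 lines without a gene were left out, and GENCODE M21 (GRCm38) named 37570 of 38887 identifiers.

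edgeR 4.0.16 in R 4.3.3 fitted group alone with TMM scaling on genes kept by filterByExpr (minimum count 10), with Benjamini-Hochberg adjustment. The standard error is the fold change over the square root of F. Summed copies replaced single copies in a second fit. Ratios were tested by exact permutation. Implied length is counts times a constant over FPKM and total counts. The script was tested on simulated counts. limma 3.58.1, DESeq2 1.42.0 and sva 3.50.0 served as alternatives. The members and gene lists were chosen with earlier results of these data known. Named were the members, list genes that passed or were background to them, and the 5 genes nearest in pattern. Chi-square per degree of freedom between libraries of a group was 10.96 to 72.90, so none was a repeat deposit. A few genes of the lists are counted but not reported by name here.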

Additional observations from a re-analysis of the deposited data

Results flagged for a closer look

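Of 38 groups of 5 values checked (10 levels, 8 ratios and the implied length of Epb42, in each group), 5 held a library far from the other four, where about 1 in 20 groups would by chance. The gap of that library to its nearest neighbour is given as a share of the group's whole range, and 0.71 is Dixon's limit for 5 values.

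CK2i 3 was the low library for Hba-a2 (share 0.742), Hbb-bs (0.768) and the alpha globin sum (0.776) in FPKM. Vehicle 5 was the high library for Hbb-bs in FPKM (0.737). The implied length of Epb42 was highest in CK2i 5 (0.738). These values overlap in what they measure, since the globins move together and the alpha sum contains Hba-a2. With both CK2i 3 and vehicle 5 left out, an alternative added after the data were seen, 6 of the 8 members passed upward. Over all genes 958 then passed upward, where the full comparison gave 922. These were the lowest treated and the highest vehicle library for the globins and Slc4a1. Their omission was therefore bound to widen the difference, and no conclusion is drawn from it.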

How the results depend on the processing

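In all 21 alternatives each of the 8 members kept a positive log2 fold change. The 5 calls were kept under DESeq2 size factors, total counts, scaling without structural RNAs, no filter, DESeq2 and both FPKM fits. Adding 1 surrogate variable (correlation with group 0.70) left 0 of the 8 passing, with alpha globin at 0.99 (edgeR adjusted p = 0.187) and beta globin at 1.08 (0.231), and 15 genes passed upward and 15 downward over the table. Without CK2i 2 and CK2i 5, 2 members passed, alpha globin was at 0.99 (0.0599) and beta globin at 1.18 (0.0616), and 73 and 102 genes passed upward and downward, where the full comparison gave 922 and 970. The same omission gave log2 differences of -0.215 for the Hbb-bt share and 0.765 for globins over membrane genes. Neither passed, in a design whose smallest unadjusted p is 0.0179. The ratios picked after the values were seen are given without test results. They differed by 0.83, 1.24 and 1.31 log2 for Slc4a1 over Epb42, Sptb and Ank1, and by -0.35 for globins over Slc4a1. The cause of the lost calls was not tested.

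With the surrogate variable no gene of any list passed. By limma on log2(FPKM + 1) the counts were 0 for other membrane genes, 5 regulators, 2 late and 1 early erythroid gene and 2 megakaryocyte genes downward, and 2 neutrophil genes and 0 macrophage genes upward. Upward calls over the table were 1689 by DESeq2. Upward and downward calls were 613 and 580 by limma on log2(FPKM + 1), and 455 and 411 on log2(FPKM + 0.1). Leaving out each library in turn gave 4 to 6 members, 182 to 1727 genes upward and 254 to 1471 downward, log2 differences of 0.775 to 0.94 for globins over membrane genes and -0.27 to -0.20 for the Hbb-bt share.

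Replicate numbers gave no clear pairing of the samples, though the check cannot exclude one. The correlation of same-numbered deviations was 0.228, 0.114, 0.068, 0.030 and -0.159. CK2i 1 and CK2i 2 were most like the vehicle library of their own number, and the other CK2i libraries were not. With the replicate block 457 genes passed upward and 5 members still passed, with edgeR adjusted p from 0.00462 (Slc4a1) to 0.0116 (Hba-a2). The exact sign-flip test over 5 pairs cannot go below p = 0.0625, so the paired tests of the planned ratios could not pass. Their log2 differences were -0.22 for the Hbb-bt share and 0.83 for globins over membrane genes. The ratios picked after the values were seen, given without test results, differed by 1.09, 1.57 and 1.58 for Slc4a1 over Epb42, Sptb and Ank1. Globins over Slc4a1 differed by -0.53. Spread between libraries, not counting error, limited all members, each with at least 570 counts per library.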
